A study of Homo sapiens with 2 samples.

Results

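The miRNAs described here are those known to act on the mRNA of MITF: hsa-miR-137, the family of hsa-miR-148a-3p, hsa-miR-148b-3p and hsa-miR-152-3p, and hsa-miR-101-3p, hsa-miR-218-5p and hsa-miR-340-5p. They were chosen by name, as every row of the deposited table whose precursor is 1 of 9 hairpins with both arms included, and the rule uses names only. This gave 15 of the 1546 rows and 13 of the 1497 mature names: the 7 listed guides, which are the strands that give each miRNA its known targets, and 6 other arms of the same hairpins. Small RNA was sequenced from A375, an established human melanoma cell line, in a single group of 2 replicate libraries. Cells were seeded at 1000000 per 10 cm dish, left for 24 h and then kept for 48 h with DMSO, a solvent used as a vehicle control. There was no second treatment or cell line, so levels can be compared between miRNAs and between the 2 libraries only, and nothing in the labels says whether the libraries came from separate cultures. Levels are in RPM, reads scaled to a library of 1000000, and errors are SDs over n = 2 libraries unless stated otherwise.

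MITF is the transcription factor that directs the melanocyte lineage, where it switches on pigment genes such as TYR, and it remains active in many melanomas. A miRNA is cut from a hairpin that has a 5p and a 3p arm. One strand is loaded into an Argonaute protein, where the bases near its 5′ end, the seed, pair with sites that lie mostly in 3′ UTRs and lower the output of the mRNA. miR-137 is best known from neurons and was among the early miRNAs shown to repress MITF. The miR-148/miR-152 family also represses the DNA methyltransferase DNMT1, miR-101 represses EZH2, the enzyme that methylates histone H3 in the Polycomb complex, and miR-218 is encoded inside the SLIT genes.

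The guides fell into 5 seeds, and the mature sequences are shown because the seed decides which MITF sites each of them can pair with. Sequences are from RefSeq, 5′ to 3′, with the seed (bases 2 to 8) in capitals. miR-137 is listed without an arm and was matched to the 3p arm, which that name denotes.
hsa-miR-148a-3p: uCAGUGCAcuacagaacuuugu
hsa-miR-148b-3p: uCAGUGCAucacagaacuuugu
hsa-miR-152-3p: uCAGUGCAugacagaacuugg
hsa-miR-101-3p: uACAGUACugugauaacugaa
hsa-miR-340-5p: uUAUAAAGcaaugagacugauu
hsa-miR-218-5p: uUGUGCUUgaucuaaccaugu
hsa-miR-137: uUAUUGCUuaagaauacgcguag

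miR-148a-3p, miR-148b-3p and miR-152-3p shared 1 seed, and no other name among the 1318 with a sequence shared a seed with a member. The search could not cover the 179 names with no sequence or the member miR-148a-5p. Counted from 1 at the 5′ end, miR-148b-3p differed from miR-148a-3p by C9U and U10C, directly after the seed. miR-152-3p differed from miR-148a-3p by C9U, U10G and U20G, and from miR-148b-3p by C10G and U20G. A U stood at the first base of all 7 guides, but in 1 of the 5 other arms with a sequence, in 131 of the 300 expressed names that matched a sequence (43.7%) and in 527 of all 1318 names that matched one. An expressed name is here one at 10 RPM or more in both libraries.

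The miR-148/miR-152 family was the most abundant of these seeds, and miR-148a-3p led it. miR-148a-3p had 5146 RPM in the first library and 7161 RPM in the second (mean 6153 ± 1425), which placed it 28th of 1497 mature names. miR-148b-3p stood at 2012 and 2485 RPM (2248 ± 335). miR-152-3p stood at 151 and 193 RPM (172 ± 30.2). All 3 were higher in replicate 2, by 1.39-fold, 1.24-fold and 1.28-fold. The family together held 0.942% and 1.26% of the RPM summed with 1 value per mature name (775596 and 782740 RPM), and 0.731% and 0.984% of the whole table, in which copies of a name are listed separately. Within that sum miR-148a-3p took 71.6 ± 1.67%, miR-148b-3p 26.4 ± 1.60% and miR-152-3p 2.01 ± 0.0682%, so the makeup of the seed pool moved less between libraries than its size.

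miR-101-3p stood at 2777 and 2215 RPM (2496 ± 397) and was higher in replicate 1, the opposite of the miR-148/miR-152 guides. Its sequence is made from a pair of hairpins, mir-101-1 on chromosome 1 and mir-101-2 on chromosome 9, which are shown with the mature arms listed for them in capitals.
hsa-mir-101-1: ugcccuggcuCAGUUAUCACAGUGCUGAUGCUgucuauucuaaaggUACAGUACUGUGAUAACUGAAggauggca
hsa-mir-101-2: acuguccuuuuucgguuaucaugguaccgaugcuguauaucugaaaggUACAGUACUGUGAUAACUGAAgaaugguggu
The guide is the same run in both, so its reads cannot say which hairpin they came from. The row of mir-101-2 held 30034 and 34179 reads and that of mir-101-1 held 29504 and 33632, which is 1.76% and 1.60% fewer. How reads that match both hairpins were assigned is not known here, and the levels use the higher row. Summing both rows would give 4950 RPM, which counts a read more than once if it was assigned to both.

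miR-340-5p stood at 528 and 358 RPM (443 ± 120), higher in replicate 1 by 1.47-fold, and no other of the 12 members tested differed by a larger fold between the libraries. miR-218-5p stood at 41.3 and 44.5 RPM (42.9 ± 2.22). It too has 2 copies, mir-218-1 in SLIT2 and mir-218-2 in SLIT3, and their rows held 447 and 686 reads against 438 and 671. Summing them would give 84.9 RPM, with the same risk of counting a read more than once.

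miR-137 was near the floor of the table. It was counted with 6 reads in each library, or 0.555 RPM (95% exact binomial interval 0.204 to 1.21) and 0.389 RPM (0.143 to 0.846), and ranked 797th. The 2 intervals overlap, and the intervals cover counting error only. miR-218-5p, the next guide above it, was 90.9-fold higher by the means.

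**Figure D1:**
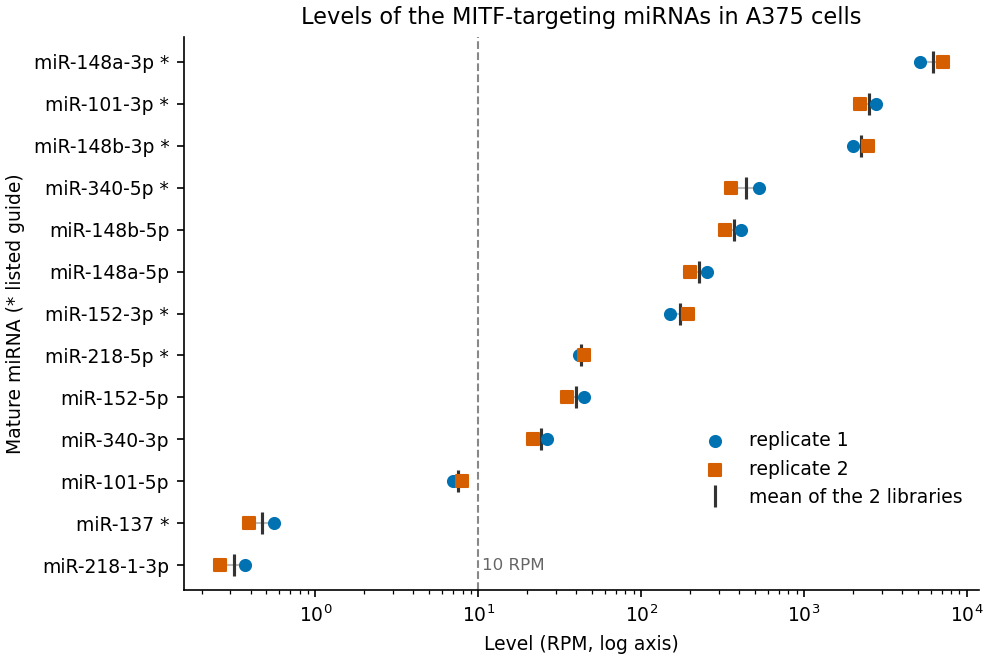
Level of each of the 13 mature miRNAs in RPM (log axis), with replicate 1 as circles, replicate 2 as squares and the mean as a bar; asterisks mark the 7 listed guides and the dashed line 10 RPM. miR-148a-3p is highest at 6153 RPM, and miR-137, miR-218-1-3p and miR-101-5p lie left of the line in both libraries.

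Ordered by mean level, the guides ran miR-148a-3p, miR-101-3p, miR-148b-3p, miR-340-5p, miR-152-3p, miR-218-5p and miR-137. miR-148a-3p was 2.47-fold above miR-101-3p, miR-148b-3p was 5.07-fold above miR-340-5p, miR-340-5p was 2.58-fold above miR-152-3p, and miR-152-3p was 4.01-fold above miR-218-5p, each beyond the SD of the 2 libraries with the higher copy used. The step from miR-101-3p to miR-148b-3p was 1.11-fold and was not resolved: miR-101-3p was higher in replicate 1 and miR-148b-3p in replicate 2. Several steps rest on how copies are counted, and a sum of copies may count the same reads more than once. With copies summed, miR-101-3p (5504 and 4395 RPM) would lie 2.20-fold above miR-148b-3p, and miR-148a-3p only 1.24-fold above miR-101-3p, within the SD and below it in replicate 1. miR-152-3p would lie 2.03-fold above miR-218-5p, and miR-218-5p 179.9-fold above miR-137. Levels of different miRNAs carry each sequence's own ligation and amplification bias, which was not measured here.

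All 13 members together held 1.47% and 1.67% of the RPM summed with 1 value per name (1.57 ± 0.140%), or 1.14% and 1.30% of the whole table. On the first of these scales the guides held 1.48 ± 0.154% and the other arms 0.0857 ± 0.0143%. Among the guides, miR-148a-3p took 52.9 ± 6.50% of the sum, miR-101-3p 21.9 ± 5.85%, miR-148b-3p 19.4 ± 0.756% and miR-340-5p 3.92 ± 1.47%. 10 of the 13 members were expressed, against 335 of 1497 names in the table (22.4%). The 3 below that level were miR-137 and the minor arms miR-101-5p and miR-218-1-3p. Median level was 172 RPM over the members, 0.588 RPM over all names and 105 RPM over the expressed ones.

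**Figure D2:**
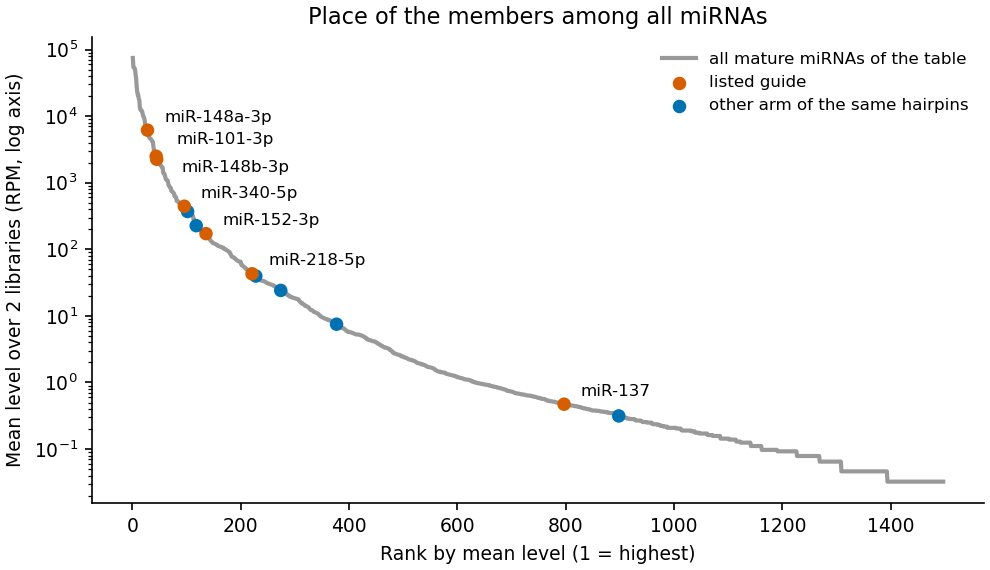
Mean level in RPM (log axis) of all 1497 mature names against their rank, as a line, with the listed guides and the other arms of their hairpins as points. 6 of the 7 guides lie within the first 221 ranks, and miR-137 lies at rank 797.

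By a fixed rule of distance in log2(RPM + 1) over the 2 libraries, each expressed guide had a nearest neighbour in level. miR-148a-3p was nearest to miR-125a-5p (5901 and 6846 RPM), and miR-148b-3p to miR-28-3p (2048 and 2395 RPM). miR-101-3p was nearest to miR-204-5p (2766 and 2498 RPM), which lies in an intron of TRPM3. miR-340-5p was nearest to miR-27b-5p (489 and 389 RPM), miR-152-3p to miR-1260b (155 and 202 RPM) and miR-218-5p to miR-590-3p (41.2 and 45.2 RPM). With 2 libraries this is closeness of level and says nothing more.

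Levels of the 5p and 3p arms were compared in the 6 hairpins listed with both. The 3p arm was the more abundant in mir-101-1, mir-148a, mir-148b and mir-152, and the 5p arm in mir-340 and mir-218-1, so in these 6 hairpins the listed guide was also the major arm. The reads of miR-101-3p and miR-218-5p are shared with a further copy, so the ratios of mir-101-1 and mir-218-1 set reads of the guide that may come from either copy against the minor arm of 1 hairpin. In mir-101-1 the 3p arm exceeded the 5p arm 326-fold, with miR-101-5p at 7.03 and 7.97 RPM. In mir-218-1 the 5p arm exceeded the 3p arm 138-fold, and miR-218-1-3p was counted with 4 reads in each library. In mir-340 the excess of the 5p arm was 18.1-fold, with miR-340-3p at 26.5 and 21.7 RPM.

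Within the family the share of the minor arm was lowest in mir-148a and highest in mir-152. miR-148a-5p (253 and 200 RPM) made up 4.69% and 2.71% of the reads of its hairpin. miR-148b-5p (412 and 328 RPM) made up 17.0% and 11.6%. miR-152-5p (44.5 and 34.9 RPM) made up 22.8% and 15.3%. miR-148b-5p, a minor arm, was thus more abundant than miR-152-3p, a guide, by 2.73-fold and 1.69-fold. Over 134 hairpins that have both arms in the table and average at least 100 RPM over the libraries with both arms added, the minor arm had a median share of 1.98%, and 40 of them had 10% or more.

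**Figure D3:**
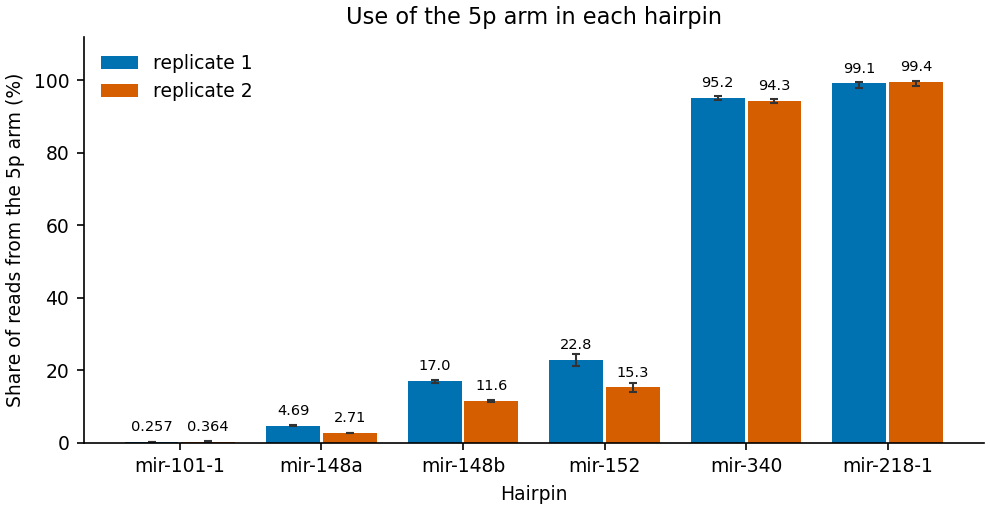
Share of the reads of each hairpin that came from its 5p arm (%), in replicate 1 and replicate 2, with 95% Wilson intervals as error bars. The share is under 1% in mir-101-1, rises from mir-148a through mir-148b to mir-152 at 22.8% and 15.3%, and is above 94% in mir-340 and mir-218-1.

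The hairpins of miR-148b and miR-152 are shown, with both arms in capitals, because the minor arm had its highest shares there among the hairpins described.
hsa-mir-148b: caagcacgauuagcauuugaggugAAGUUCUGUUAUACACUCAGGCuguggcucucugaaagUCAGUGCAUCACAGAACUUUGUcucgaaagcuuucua
hsa-mir-152: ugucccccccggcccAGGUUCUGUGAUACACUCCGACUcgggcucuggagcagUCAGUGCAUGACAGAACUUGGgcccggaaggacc
In both, the guide is the second run of capitals and the 5p arm the first. The 5p arms have seeds of their own, AGUUCUG in miR-148b-5p and GGUUCUG in miR-152-5p, and do not share the seed of the guides.

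The libraries were compared for each mature name with Fisher's exact test, two-sided, on reads against all other read assignments. Read assignments are reads summed over all rows, so a read listed in several rows may count more than once. Benjamini-Hochberg adjustment was over 869 names with at least 10 reads in sum. The test compares these 2 libraries, with counting error only, and not conditions. Of the 12 members tested, 0 passed an adjusted p of 0.05 with more than a 2-fold difference, beside 40 of 869 names (4.6%). Without the fold limit 9 of 12 passed, beside 300 of 869 (34.5%), and 9 also had an unadjusted p under 0.05. 6 of these were higher in replicate 1 and 3 in replicate 2. The shares without a fold limit do not compare like with like, because a given fold passes more easily with more reads. Whether read depth accounts for the gap was not tested. Median level was 172 RPM over the members and 0.588 RPM over all names. miR-340-5p had an adjusted p of 1.6e-92 and miR-101-3p of 4.8e-177, whereas miR-218-5p had 0.417, miR-101-5p 0.629 and miR-137 0.75. The median difference of the expressed members was 0.34 on the log2 scale without sign, against 0.24 over all expressed names.

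The 3 names that were higher in replicate 2 were the miR-148/miR-152 guides, while the 5p arms of the same hairpins were all higher in replicate 1. The ratio of 5p to 3p reads therefore fell from replicate 1 to replicate 2 by 1.77-fold in mir-148a, 1.55-fold in mir-148b and 1.64-fold in mir-152, with adjusted p of 3.5e-96, 5.9e-85 and 1.2e-11 (Fisher's exact test on the reads of both arms, adjusted over 134 hairpins). A ratio within 1 hairpin does not move with the scaling of the library. By the same exact test, the ratio in mir-340 was 1.21-fold lower in replicate 2 (adjusted p = 0.0393) and that in mir-101-1 1.42-fold higher (adjusted p = 0.0324, with guide reads that mir-101-2 may share), and neither passed the 1.5-fold limit. Among all hairpins tested, 16 of 134 hairpins (11.9%) had a ratio that was lower in replicate 2 and passed both limits, and 73 of 134 were lower by any amount. The 16 include the miR-148/miR-152 hairpins. Others, such as mir-193a and mir-16-2, passed both limits with a higher ratio in replicate 2. This arm test was added after the data were seen. mir-148a, mir-152 and mir-148b ranked 10th, 13th and 17th of 134 by that fall. The median ratio over the 134 hairpins changed by -0.04 on the log2 scale.

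**Figure D4:**
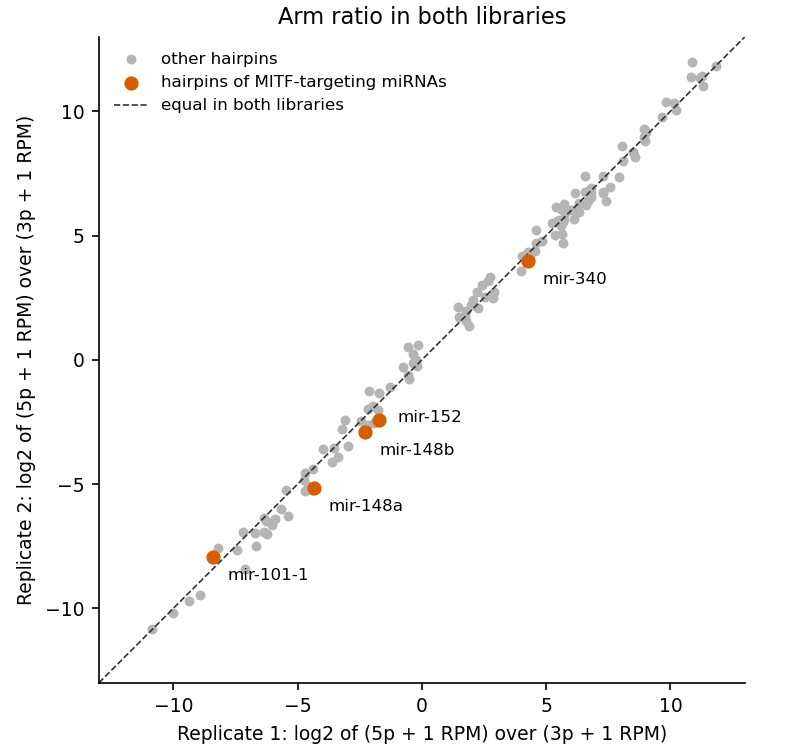
Log2 ratio of 5p to 3p level (each + 1 RPM) in replicate 2 against replicate 1 for the 134 hairpins with both arms, with the hairpins of the MITF-targeting miRNAs in orange and equality as a dashed line. mir-148a, mir-148b and mir-152 lie below the line; their ratios of reads are 1.77-fold, 1.55-fold and 1.64-fold lower in replicate 2.

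The hairpins lie in different parts of the genome (GRCh38). mir-148b is at chr12:54337216-54337314 on the plus strand, in an intron of COPZ1 and also of the overlapping gene AC078778.2. mir-152 is at chr17:48037161-48037247 on the minus strand, within an intron of COPZ2. With COPZ1 and COPZ2, these family members sit in paralogous genes for a coatomer subunit. mir-148a is at chr7:25949919-25949986 on the minus strand and overlaps no annotated gene. mir-137 is at chr1:98046070-98046171 on the minus strand, in an exon of MIR137HG, a long noncoding RNA. mir-101-1 is at chr1:65058434-65058508 on the minus strand, outside any other gene, and mir-101-2 at chr9:4850297-4850375 on the plus strand, in an intron of RCL1. mir-101-2 also overlaps an exon of the antisense gene AL158147.1 on the opposite strand. mir-218-1 is at chr4:20528275-20528384 on the plus strand in an intron of SLIT2, mir-218-2 at chr5:168768146-168768255 on the minus strand, within SLIT3 (intron), and mir-340 at chr5:180015303-180015397 on the minus strand, within RNF130 (intron).

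The longest annotated MITF 3′ UTR, a single exon of 3089 bases at chr3:69965249-69968337 on the plus strand (GENCODE 29, GRCh38), held 8 seed matches of the guides, and every one of the 5 guide seeds had at least 1. A match is the reverse complement of bases 2 to 8 of the miRNA, 7 bases, and counts as 8 bases where an A follows. The guides were listed because they are known to act on MITF, so the matches are a description, and MITF mRNA was not measured. They are shown with the matching bases in capitals, named by the base of the UTR at which the match starts, counted from 1 after the stop codon.
miR-148/miR-152 at base 12, chr3:69965249-69965267: cgaatcctcccTGCACTGc
miR-340-5p at base 523, chr3:69965757-69965778: tagctttgtttagtCTTTATAc
miR-137 at base 1231, chr3:69966465-69966486: taggacatgaaaatAGCAATAt
miR-137 at base 2770, chr3:69968004-69968025: tttttaaacaataaAGCAATAA
miR-218-5p at base 2805, chr3:69968039-69968060: acataggaagttaaAAGCACAA
miR-148/miR-152 at base 2843, chr3:69968077-69968098: atatttttgaaaaaTGCACTGg
miR-101-3p at base 2934, chr3:69968168-69968189: cttgcggatgcttgGTACTGTA
miR-137 at base 2973, chr3:69968207-69968228: ctgctgttggatgcAGCAATAA

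miR-137 had 3 of these matches, more than any other of the 5 seeds, and the lowest level of the guides, 6 reads in each library. With a weaker kind of 7-base match included, which pairs bases 2 to 7 and is followed by an A, miR-137 and the miR-148/miR-152 seed each had 4. Without that kind, the miR-148/miR-152 seed had 2 matches, both of 7 bases, and miR-101-3p, miR-218-5p and miR-340-5p had 1 each. The first of the 4 matches of 8 bases started 320 bases from the end of the UTR, and that last stretch, drawn from the matches themselves, is 10.4% of the UTR and held 5 of the 8. For scale, of 2758 genes whose longest 3′ UTR is within 25% of this length, 19.9% held the miR-137 match AGCAATA, 23.7% the miR-148/miR-152 match TGCACTG, 18.3% the miR-101-3p match GTACTGT, 25.4% the miR-218-5p match AAGCACA and 28.6% the miR-340-5p match CTTTATA. Among the other arms with a sequence, miR-148b-5p alone had a match (CAGAACT). Among the 300 expressed names with a sequence, 55 (18.3%) had a match in this UTR. Those 55 held 9.09 ± 0.0509% of the RPM of the 300, and the 7 members among them, 6 guides and miR-148b-5p, held 18.8 ± 1.65% of that.

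**Figure D5:**
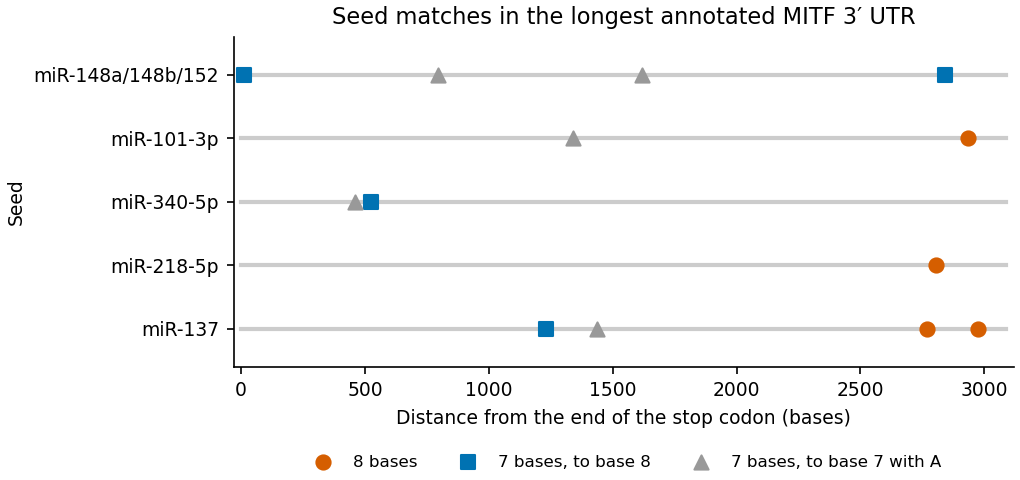
Seed matches of the guides along the longest annotated MITF 3′ UTR, as distance from the stop codon in bases, for each of the 5 seeds; circles are matches of 8 bases, squares of 7 bases and triangles the weaker kind of 7 bases that pairs bases 2 to 7 followed by an A. The 4 circles lie from base 2770 to base 2973.

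A list of other miRNAs of the MITF circuit was set beside them: 4 of the 6 with a row were expressed. miR-182-5p, which represses MITF, stood at 7037 and 7042 RPM, close to miR-148a-3p, and miR-25-3p at 3964 and 4871 RPM. miR-204-5p stood at 2766 and 2498 RPM, close to miR-101-3p, and miR-96-5p at 44.7 and 57.6 RPM, close to miR-218-5p. miR-155-5p, a further repressor of MITF, was counted with 15 reads in each library. miR-211-5p, which is made from an intron of the MITF target TRPM1, was counted with 3 and 2 reads. miR-124-3p was not analysed here.

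The libraries held 10816826 and 15428446 read assignments to miRNAs, summed over all rows, so the number of separate reads may be lower. Of 10 miRNAs that mark melanocytes and melanoma, 9 were expressed, with summed levels of 89846 and 77640 RPM, and miR-211-5p was not. miR-21-5p, which is abundant in many cell types, made up 59733 and 47975 RPM of these sums, while miR-508-3p, miR-509-3p and miR-514a-3p lay between 52.8 and 298 RPM. Of 23 markers of 6 other cell types, 18 were matched by name to a row and 7 were expressed. The matched markers had sums of 2248 and 2541 RPM. Over all names, 335 of 1497 (22.4%) were expressed. Neuronal markers, miR-9-5p and miR-128-3p in the main, made up 1831 and 2000 RPM of the sums for other cell types. Endothelial markers made up 186 and 265 RPM, mostly miR-126-5p (161 and 239 RPM). Those of blood cells made up 176 and 205 RPM. Nearly all of that was miR-486-5p (171 and 200 RPM), the only blood marker expressed. Those of epithelium made up 54.3 and 70.3 RPM. The epithelium sums leave out miR-203a-3p, which has a row, below 1 RPM in both libraries, but was not matched by name. Liver had 0.277 and 0.519 RPM and muscle 0.647 and 0.130 RPM. The part of these cell types in the levels above was not tested.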

How the data were processed

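Small RNA of 2 A375 libraries was analysed. The authors deposited 1 table of RPM values per hairpin and mature miRNA; the tools named in the submitters' processing notes are CASAVA 1.8 and cutadapt 1.2.1. An aligner, a miRBase release and the treatment of multiply mapped reads are not given in the sources used. RPM steps gave whole reads within 0.01 of a read. Each mature name took the highest of its copies in each library, chosen with the near-equal rows of copies known. Names with at least 10 reads in sum were tested with Fisher's exact test (SciPy 1.17.1, Benjamini-Hochberg) at an adjusted p of 0.05 and 2-fold. The arm ratio test used hairpins with a summed mean of at least 100 RPM, at least 10 reads in each arm over both libraries and a 1.5-fold limit, and was added after the data were seen. Every member, its nearest name in level and the circuit list were named by rule. The members and lists were chosen with earlier results of these data known. Mature and hairpin sequences are from RefSeq (GRCh38.p14), 1318 of 1497 names matched, and hairpin positions were the same in GENCODE 29, which gave the 3′ UTRs. Scripts were tested on simulated data. Alternatives were other pseudocounts, summed copies, other level minimums, the most abundant miRNA left out, each library alone and other match lengths and transcripts.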

Additional observations from a re-analysis of the deposited data

How the results depend on the processing

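Of 113 values recomputed under alternatives, 62 were set aside. Nearly all of these could not move beyond the spread by construction, such as levels without 1 of the 2 libraries. The exceptions were the counts of expressed members in each library alone, which could have moved and stayed at 10. Of the other 51, 16 moved, by more than 1 SD or, for counts, over 1.5 times. A reversal was looked for in the arm ratios only, where a pseudocount cannot cause one, so the 0 found says nothing. The number of expressed members was 10, and 13, 11 and 7 with no minimum or one of 1 or 100 RPM. With the most abundant miRNA left out, the members held 1.74% of the RPM in place of 1.57%. Without a fold limit, 9 members in place of 0 differed between the libraries. With a 2-fold in place of a 1.5-fold limit, 0 of the 3 miR-148/miR-152 hairpins kept the call of a lower 5p to 3p ratio. The MITF 3′ UTR held 4 matches of 8 bases, and 13 with the weaker 7-base kind included, in place of 8. In the shorter annotated MITF 3′ UTRs, of 0 to 699 bases, the guides had 0 or 1 match. Summing copies, which may count shared reads more than once, moved miR-101-3p to 4950 RPM and miR-218-5p to 84.9 RPM. With the pseudocount, 4 log2 arm ratios moved, of mir-101-1, mir-218-1 and mir-340. Depth limits miR-137 and miR-218-1-3p, at 6 and 4 reads in each library. No paired analysis was possible because the series has 1 group.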

Other observations

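Next to mir-137, 719 bases away, lies the hairpin MIR2682. miR-2682-5p, chosen for this position and after its value was seen, was counted with 40 and 54 reads (3.70 and 3.50 RPM), beside 6 and 6 reads of miR-137.

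The same seed matches were counted in the longest annotated 3′ UTR of BRAF, whose mutated kinase A375 cells carry, a count added after the MITF matches were seen. That UTR is longer, 7167 bases, and held a match of 2 of the 7 guides, or 2 of the 5 guide seeds. There was 1 match of 8 bases for miR-101-3p and 1 of 7 bases for miR-218-5p. Of the 300 expressed names with a sequence, 141 (47.0%) had a match there. Of 816 genes with a 3′ UTR within 25% of that length, 43.9% held the miR-148/miR-152 match, which BRAF did not hold; it also held no match of miR-137 or miR-340-5p.

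Among the 55 expressed names with a match in the MITF 3′ UTR, miR-26a-5p was the most abundant, at 12190 ± 1434 RPM with 1 match. miR-222-3p, miR-221-3p and miR-182-5p followed by mean level at 9244, 8458 and 7040 RPM. miR-148a-3p came next at 6153 ± 1425 RPM and lay above miR-182-5p in replicate 2. These names were chosen after their values were seen.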
